A study of Mus musculus with 8 samples.

Results

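METTL14 sites that lay away from every annotated gene and overlapped no METTL3 peak were described in mouse embryonic stem cells (ESCs). Peaks of the 4 METTL14 lists on chromosomes 1 to 19 and X were merged wherever they shared at least 1 bp, which gave 7944 regions, of which 2288 were called in 2 or more libraries. Of these 2288, 1461 lay in a gene of any biotype, 507 lay outside genes but within 2 kb of one, and 320 lay farther away. A peak of a METTL3 list overlapped 68 of the 320. The remaining 252 regions, 11.0% of the 2288 (95% Wilson interval 9.80% to 12.4%), are called the intergenic regions here. They were 149 to 356 bp long, with a median of 182 bp. The regions were chosen by the measured calls of the METTL14 and METTL3 libraries, so that their replication and their lack of METTL3 overlap are the rule and not a result.

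The study mapped both proteins by CUT&RUN, in which an antibody brings micrococcal nuclease to a protein on chromatin and the released fragments are sequenced. The METTL14 antibody was used in Mettl3 control and Mettl3 CKO cells and the METTL3 antibody in Mettl14 control and Mettl14 CKO cells, as the labels name them, and each of these 4 groups had 2 libraries. All were C57BL/6 ESCs kept with LIF, the GSK3 inhibitor CHIR99021 and the MEK inhibitor PD0325901. CKO is not spelled out, and neither a Cre nor a clone is named. Whether the 2 libraries of a group are separate cultures is not said, so their spread may be technical. The antibody always changed with the cell line, and no library made with a nonspecific antibody was analysed here. The METTL14 lists held 3129 and 3546 peaks in control 1 and 2 and 3922 and 1439 in CKO 1 and 2, and the METTL3 lists 242 to 353. The deposited score was 1 for every peak and no heights are in the lists, so depth is unknown, and peak lists check neither ESC markers nor the genotype. The place of a peak in its list, from the top (0%) to the bottom (100%), was used in place of a height, although the sources used here do not say what the order reflects.

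METTL14 is the partner of METTL3 in the enzyme complex of the nucleus that methylates adenosines of RNA to N6-methyladenosine (m6A). METTL3 is the catalytic subunit, and METTL14 holds the RNA substrate. Regulatory sequence between genes includes enhancers, which act on genes at a distance, and the nearest gene need not be the one an enhancer acts on.

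The sequences of the intergenic regions themselves were not analysed here. Shown instead are the 250 bases upstream of the annotated start of 4 genes that had an intergenic region as neighbour and also a separate METTL14 region, called in 2 or more libraries, in that upstream stretch. They were chosen after their values were seen, to show which bases METTL14 regions covered at genes near intergenic sites. They come from RefSeq (GRCm38.p6), read 5′ to 3′ on the strand of the gene, and capitals mark the bases inside the METTL14 region.
Pax2, chr19:44756656-44756905 (+): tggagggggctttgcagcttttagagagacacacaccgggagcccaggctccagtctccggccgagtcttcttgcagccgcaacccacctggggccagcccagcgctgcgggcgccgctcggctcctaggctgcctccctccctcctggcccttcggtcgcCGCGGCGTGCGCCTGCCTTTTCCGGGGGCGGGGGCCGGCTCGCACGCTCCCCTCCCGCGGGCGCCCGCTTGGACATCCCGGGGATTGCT
Pou3f2, chr4:22488367-22488616 (-): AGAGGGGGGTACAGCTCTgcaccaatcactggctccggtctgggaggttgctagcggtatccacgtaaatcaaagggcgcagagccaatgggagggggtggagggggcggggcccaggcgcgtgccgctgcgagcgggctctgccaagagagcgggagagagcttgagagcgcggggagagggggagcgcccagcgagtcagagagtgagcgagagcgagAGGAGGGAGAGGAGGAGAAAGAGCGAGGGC
Tfap2a, chr13:40733796-40734045 (-): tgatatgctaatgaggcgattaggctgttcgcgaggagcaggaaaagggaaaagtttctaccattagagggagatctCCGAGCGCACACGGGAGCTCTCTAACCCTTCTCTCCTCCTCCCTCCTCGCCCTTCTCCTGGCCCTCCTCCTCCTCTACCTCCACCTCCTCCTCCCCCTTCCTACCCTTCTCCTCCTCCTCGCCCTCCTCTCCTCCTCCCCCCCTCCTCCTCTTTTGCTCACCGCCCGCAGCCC
Cbx8, chr11:119040914-119041163 (-): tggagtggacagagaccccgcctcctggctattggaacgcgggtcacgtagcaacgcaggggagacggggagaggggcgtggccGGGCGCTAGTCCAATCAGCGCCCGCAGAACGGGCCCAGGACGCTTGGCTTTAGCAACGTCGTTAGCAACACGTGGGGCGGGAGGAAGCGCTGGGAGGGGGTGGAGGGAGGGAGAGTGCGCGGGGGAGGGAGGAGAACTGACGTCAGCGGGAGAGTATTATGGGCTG
The METTL14 region covered 89 of the 250 bases at Pax2, 48 at Pou3f2, 173 at Tfap2a and 166 at Cbx8. The number of CG dinucleotides was 25 at Pax2, 18 at Pou3f2, 10 at Tfap2a and 22 at Cbx8, against a median of 6 over 32851 such stretches (quartiles 2 and 16). All 4 stretches were thus above the median, and Tfap2a was below the upper quartile. They belong to 19 genes that had an intergenic region as neighbour and a METTL14 region at or close to their start. Of these 19, 18 were above the median number of CG dinucleotides, with a range of 6 to 39. The G and C content of the 4 shown was 72.8%, 66.8%, 60.4% and 66.4% in the same order, against a median of 52.4%. Others of the 19 were below that median: Gm36079 (46%), Eif3k (48%) and Hand2 (49.2%). No difference from the background was tested. The libraries that called the region were control 1, control 2 and CKO 1 at Pax2, both CKO libraries at Tfap2a and all 4 at Cbx8. Pou3f2 had 2 regions at its start, called in all 4 libraries and in control 1 and CKO 1. The nearest intergenic region lay 19889 bp from the Pax2 gene, 4745 bp from Pou3f2, 3837 bp from Tfap2a and 7499 bp from Cbx8.

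The intergenic regions were called in both kinds of cells. All 4 libraries called 32 of them (12.7%, 9.14% to 17.4%), where the share over all 2288 regions was 18.7%. Exactly 3 libraries called 64 (25.4%, against 26.8%), and 1 control with 1 CKO library called 102 (40.5%, against 38.1%). Both control libraries alone called 33 (13.1%, 9.48% to 17.8%, against 10.4%), and both CKO libraries alone called 21 (8.33%, 5.51% to 12.4%, against 6.03%). The rule removes regions that overlap METTL3, and these were often called in all 4 libraries: with METTL3 overlap allowed, the share in all 4 was 25.0% of 320. Among the 2143 regions of 2 or more libraries without METTL3 overlap, wherever they lay, the share in all 4 was 15.8%, inside the interval of the intergenic regions. The intervals cover counting error only, and no difference from the other regions was tested.

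**Figure D1:**
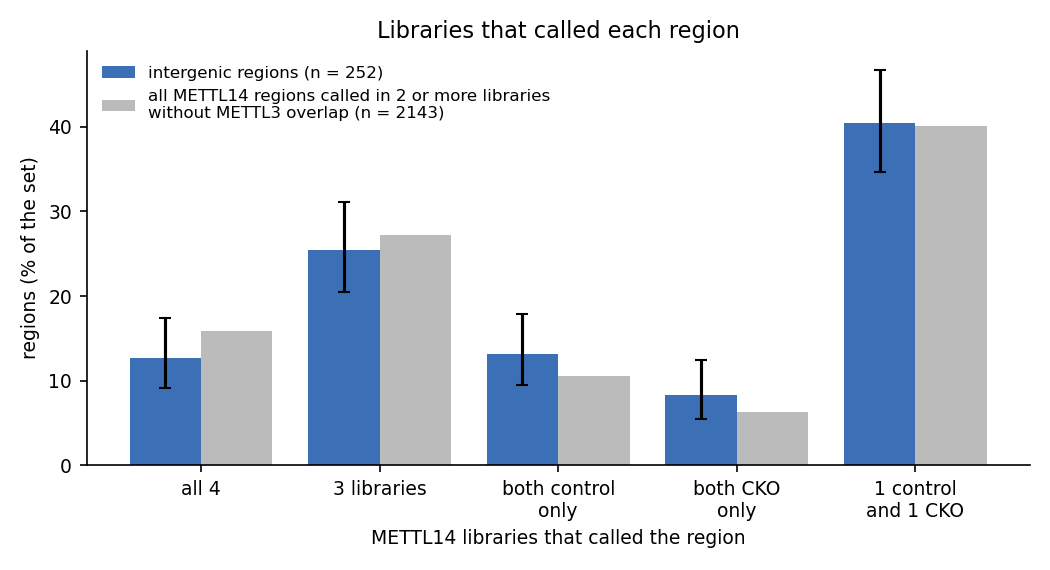
Share of regions (vertical axis, percent of the set) by the METTL14 libraries that called them (horizontal axis), for the 252 intergenic regions (blue, bars with 95% Wilson intervals) and all 2143 regions called in 2 or more libraries without METTL3 overlap (grey). The grey values lie within the blue intervals (for all 4 libraries 12.7% and 15.8%), and the largest class of both sets was 1 control with 1 CKO library.

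By library, 159 and 172 intergenic regions were called in control 1 and 2, and 202 and 99 in CKO 1 and 2. The 2 CKO libraries lay on either side of both controls. The control mean was 166 ± 9.19 (SD, n = 2) and the CKO mean 151 ± 72.8 (SD, n = 2). The log2 difference, CKO minus control, was -0.23 (two-sided exact permutation p = 1; the smallest p that 2 against 2 libraries allow is 0.333). Without CKO replicate 2, whose list was the shortest, the difference was 0.17 with the regions chosen anew and 0.29 over the same 252 regions, and with all lists shortened to 1439 peaks it was 0.06, so its sign rested on that library.

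As a share of the list, 5.08% and 4.85% of the peaks lay in intergenic regions in control 1 and 2, and 5.15% and 6.88% in CKO 1 and 2. Both CKO values were above both control values, and CKO 2 stood apart from the other 3. The means were 4.97% ± 0.163 (SD, n = 2) and 6.02% ± 1.22 (SD, n = 2), a difference of 1.05 percentage points (two-sided exact permutation p = 0.333, the smallest possible). With lists of equal length the difference was 0.208 points. It was 0.46 points for regions over 5 kb from genes and 0.28 points over 10 kb. It was larger with protein-coding genes only (2.15 points) and with METTL3 overlap allowed (1.69 points). Without CKO replicate 2 the difference was 0.184 points over the same 252 regions. It was -0.23 points when the regions were chosen anew from the other 3 lists. That choice drops the 21 regions of both CKO libraries alone from CKO 1, 5 regions from control 1 and 7 from control 2. CKO 2 also had the largest share of its regions away from genes and METTL3 called in a further library. It was 66.4% (58.5% to 73.5%) of 149, against 30.3%, 32.3% and 36.7% in control 1, control 2 and CKO 1. Its list was the shortest and was compared with 3 longer ones, and the part of list length in this share was not tested. The same share over all METTL14 regions of each library was not computed. Leaving a library out lowered the number of regions from 252 to 161 without control replicate 2 and to 139 without CKO replicate 1.

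**Figure D2:**
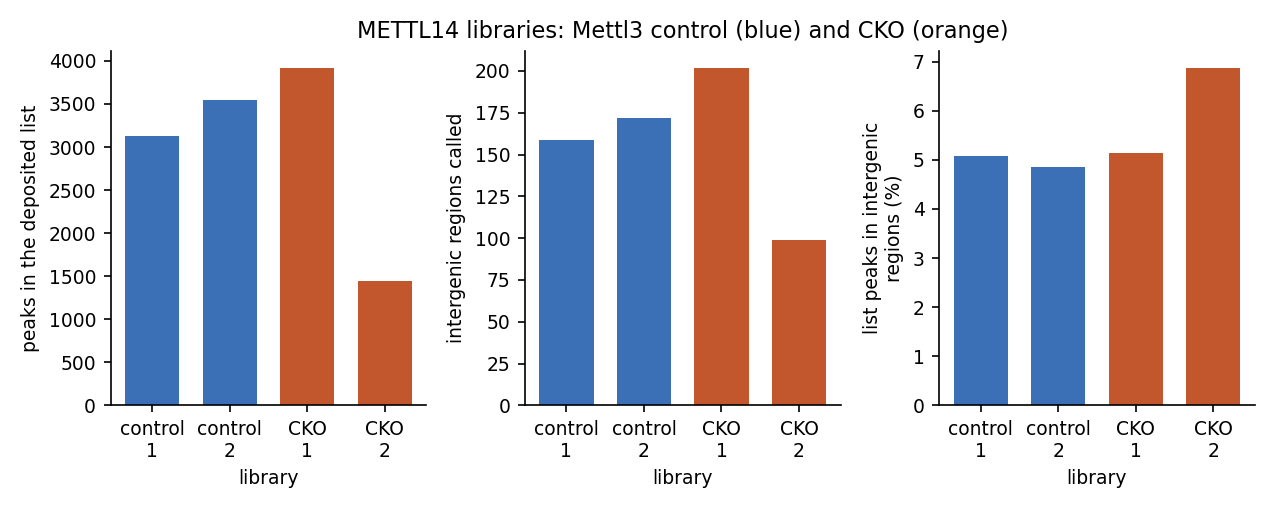
Peaks in each deposited METTL14 list, intergenic regions called, and percent of list peaks in intergenic regions (vertical axes, left to right), with 1 bar per library for control (blue) and CKO (orange). CKO 2 has the shortest list (1439 peaks) and the highest percentage (6.88%), and the other 3 libraries lie between 4.85% and 5.15%.

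The share called again in a further library is part of the rule and is given as a description. Of 1378 merged regions that met the rule on genes and METTL3, 252 (18.3%, 16.3% to 20.4%) were called in 2 or more libraries, against 2036 of the 6566 other regions (31.0%, 29.9% to 32.1%). Among regions in or within 2 kb of genes that overlapped no METTL3 peak it was 1891 of 6367 (29.7%, 28.6% to 30.8%). The difference was not tested. The remaining 1126, called in 1 library only, served as the background for what the rule did not use. Intergenic regions stood at a median of 40.7%, 40.8%, 39.0% and 55.8% of the way down the lists of control 1, control 2, CKO 1 and CKO 2. The medians of all regions called in 2 or more libraries were 32.9%, 33.3%, 32.4% and 46.1% in the same lists, higher up in each of the 4. Regions of 1 library stood at 74.5%, 78.5%, 68.7% and 72.8%. Where 2 libraries called a region, their peak centres lay a median of 25 bp apart (156 intergenic regions), against 26 bp in 1092 other regions. Over all 4 libraries the centres spanned a median of 33 bp in the intergenic and 38 bp in the other regions.

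The intergenic regions mostly lay less than 50 kb from a gene, as did the regions of 1 library. The median distance to the nearest gene of any biotype was 8677 bp (95% interval of the median 7117 to 10842 bp), with quartiles of 4789.5 and 19311.5 bp and a range of 2093 to 332279 bp. Single-library regions had a median of 10589 bp (9573 to 11470 bp). By distance, 71 intergenic regions lay up to 5 kb from a gene, 64 lay 5 to 10 kb, 95 lay 10 to 50 kb and 20 lay 50 to 100 kb away. Farther than 100 kb lay 2 (0.794%, 0.218% to 2.85%), against 46 single-library regions (4.09%, 3.08% to 5.41%). The nearest protein-coding gene lay at a median of 15008 bp (11419 to 17614 bp), against 19580.5 bp (17838 to 22334 bp). The genes on either side were 38841 bp apart at the median (34959 to 45310 bp), against 46808 bp (44396 to 50021 bp). These differences were not tested.

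**Figure D3:**
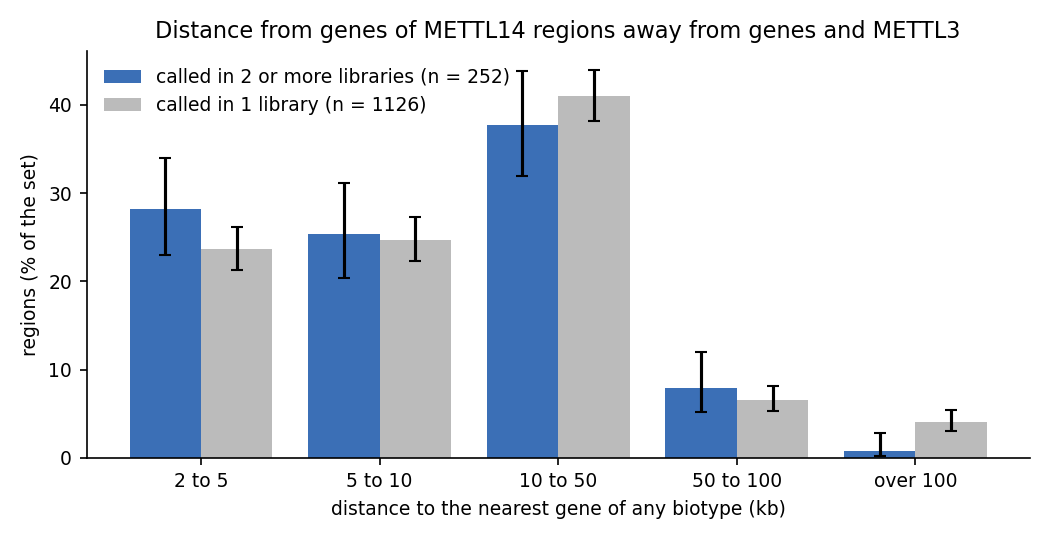
Share of regions (vertical axis, percent of the set, with 95% Wilson intervals) by distance to the nearest gene in kb (horizontal axis), for the 252 regions called in 2 or more libraries (blue) and the 1126 called in 1 library (grey). The intervals overlap up to 100 kb, and beyond 100 kb the shares are 0.794% and 4.09%.

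The 6 most isolated intergenic regions lay 81679 to 332279 bp from any gene. The farthest, chr13:86379075-86379246, was called in both CKO libraries, at 69.7% and 81.1% of their lists, and lay 332279 bp from Cox7c, a subunit of cytochrome c oxidase. The next, chr3:11211296-11211495, lay 196096 bp from the pseudogene Gm8910. The others had Fam43a (91258 bp), the lncRNA gene Gm38868 (90299 bp), Gm28710 (86776 bp) and Pnpt1 (81679 bp) as nearest genes. None of the 6 was called in all 4 libraries. At the 2 kb limit, the regions just inside lay 2093 bp from Slc29a2, 2144 bp from Bhlhe41, 2204 bp from Mybl2 and 2226 bp from Gm40798. Those just outside the rule lay 1989 bp from Foxl1, 1974 bp from Gfi1b, 1973 bp from Ftl1-ps2 and 1906 bp from Sox21.

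The nearest gene was protein-coding for 144 intergenic regions (57.1%, 51.0% to 63.1%), against 45.3% of single-library regions and 43.7% of all annotated genes. It was a lncRNA gene for 66 (26.2%, against 28.3%) and a pseudogene for 34 (13.5%, 9.82% to 18.3%, against 20.6%). The region faced the start of the nearest gene in 81 of the 157 cases where the strand was given (51.6%, 43.8% to 59.3%), close to the 50.7% of single-library regions. The nearest protein-coding genes were 213 different genes, 186 of them nearest to a single region, so that few genes had several intergenic regions. Both flanking genes were protein-coding for 82 regions, a count for which no share of single-library regions was computed.

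For a minority of the intergenic regions, the nearest protein-coding gene carried METTL14 itself. The nearest protein-coding gene had a METTL14 region of 2 or more libraries in it or within 2 kb of it for 69 intergenic regions (27.4%, 22.2% to 33.2%). The share was 15.5% for single-library regions (13.5% to 17.8%) and 8.16% over all 21631 protein-coding genes, whatever their length. In the window from 250 bases before to 50 after the start, such a region was present for 27 of the 183 regions whose gene has a window in the RefSeq table (14.8%, 10.3% to 20.6%), against 8.16% (6.53% to 10.2%) for single-library regions and 4.71% of genes. The 69 regions had 51 different genes, and the 27 had 19, with Tmem267 counted 5 times. Without Tmem267 and Gm38821, each nearest to 5 intergenic regions, the first share was 24.4% (19.4% to 30.2%). Without Tmem267 the share at starts was 12.4% (8.31% to 18.004%), and its interval then overlapped that of single-library regions. The nearest protein-coding gene also lay closer to intergenic regions, and the part of that distance in the difference was not tested.

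Genes for developmental transcription factors, which set cell identity and are known in ESCs as targets of Polycomb repression, were the nearest protein-coding genes of 27 intergenic regions (10.7%, 7.47% to 15.1%). The same held for 9.24% of single-library regions (7.68% to 11.1%). On the list are 1.73% of protein-coding genes, a count of genes that takes no account of how much sequence lies nearest to each. The share of the intergenic regions was thus near that of METTL14 peaks found once. When all lists were shortened to 1439 peaks, it was 18.2% of 110 regions, against 18.04% of single-library regions. When only regions over 5 kb from genes were kept, it was 7.18% against 8.72%. The 27 regions lay near 20 genes, among them Cux1, Gsx2, Hand2, Hoxb13, Hoxc9, Hoxc10, Hoxc13, Id3, Mecom, Pax2, Pax5, Pou3f2, Sox9, Sox13, Tbx3, Tbx15, Tfap2a and Tfap2b. In 18 of the 27 cases the gene was within 10 kb, as it was for 54 of the 104 single-library regions near listed genes. In 22 of the 27 the gene carried a METTL14 region of its own, and the same count for single-library regions was not computed.

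The best placed of these lay near the AP-2 genes, regulators of neural crest and kidney. Tfap2a had 3 intergenic regions. That at chr13:40709577-40709747, 4054 bp away, was called in control 1 and CKO 1 at 12.7% and 8.26% of their lists. Its neighbour chr13:40709780-40709964, 3837 bp away, was called in control 2 and CKO 2 at 13.7% and 23.1%. These 2 regions were thus split between libraries although they were direct neighbours. The third lay 64238 bp away and was called in both control libraries. Tfap2b had regions 2575 bp away (control 2 and CKO 1, at 16.6% and 5.18%) and 2957 bp away (control 1 and CKO 1, at 14.1% and 9.05%). All 5 stood away from METTL3, the nearest METTL3 peak being more than 2 Mb off.

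At Gsx2, a homeobox gene of the ventral forebrain, the region chr5:75085076-75085237 lay 7182 bp beyond the gene's end. It was called at 6.49% and 5.50% in control 1 and 2 and at 7.50% and 30.9% in CKO 1 and 2. Near Mecom, a zinc finger regulator of blood stem cells, regions lay 4764 bp (control 1, control 2 and CKO 1) and 5248 bp (control 1 and CKO 2) from the gene's start. Regions near Pax2 (19889 bp), a regulator of kidney and eye, Tbx3 (25363 bp), a T-box factor also active in ESCs, and Hoxc13 (2906 bp) were called in all 4 libraries. With Gsx2 these were the 4 of the 27 called everywhere. At Hand2, which acts in heart and limb, the 2 regions lay 3541 and 4009 bp away, the first called in control 1 and CKO 1 and the second in both CKO libraries.

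The Hoxc cluster, which helps to pattern the body axis, had 4 intergenic regions over 77434 bp, in the gaps between its genes and at its outer edge. They lay 10716 and 2906 bp from Hoxc13, 2957 bp from Hoxc10 and 2915 bp from Hoxc9. That near Hoxc10 (chr15:102963664-102963838) was called only in the CKO libraries, at 11.4% and 19.1%, that nearer to Hoxc13 in all 4, at 21.6%, 25.6%, 26.4% and 53.6%, that near Hoxc9 in control 2 and CKO 1, and the farthest in all but control 1. The calls therefore differed between libraries within this one cluster. A region 3985 bp from Hoxb13 was called in all but control 2. In the same way, Sp8 and Sp9, related zinc finger factors of limb and forebrain outside the list, had 3 regions. That near Sp9 (chr2:73278729-73278891), 2957 bp beyond its end, was called in all 4 libraries at 15.1%, 13.1%, 6.81% and 13.3%. Those 2984 and 2456 bp from Sp8 were called in control 1 with CKO 1 and in both CKO libraries.

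Few intergenic regions lay near the other gene lists. For secreted signals and their receptors it was 3 (1.19%, against 1.07% of single-library regions): Lefty2, an inhibitor of Nodal signalling, at 4194 bp, and the ephrin receptor genes Epha2 at 16698 bp and Epha5 at 258932 bp. Ion channels and neurotransmitter receptors had 3 (1.19%, against 2.13%), near Kcne1, Gabrp and Scn3a, and zinc finger protein genes 4 (1.59%, against 2.58%), near Zfp978, Zfp395, Zfp992 and Zfp958. Neural adhesion genes had 4 (1.59%, against 1.33%), all more than 1 Mb from Lrrc4c or Cntnap5b. Olfactory and vomeronasal receptor genes had 8 (3.17%, 1.62% to 6.14%, against 1.78%), 4 of which lay near the start of chromosome 18, with Vmn1r238 as nearest protein-coding gene at 4036 to 117048 bp. Immediate early genes had 0 of 252, which allows a share of up to 1.50% (Wilson), against 0.799%.

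Pluripotency factors had 2 (0.794%, against 1.15%), both called in all 4 libraries: Tbx3, given above, and Nanog. The Nanog region (chr6:122702741-122702899) lay 4589 bp from this homeobox gene of the naive state and 3672 bp from the pseudogene Gm10224. It was called at 33.0% and 11.8% in control 1 and 2 and at 11.8% and 28.3% in CKO 1 and 2, with control 2 and CKO 1 alike. Neighbours outside the lists, picked with their values known, included a microRNA cluster and Polycomb genes, for which no share of single-library regions was computed. A region 4967 bp from Mir290a, first member of the main microRNA cluster of ESCs, was called in control 1 and CKO 1. Among Polycomb genes, Jarid2, a cofactor of Polycomb repressive complex 2, had regions 8615 and 25249 bp away, and Rybp, of Polycomb repressive complex 1, had regions 48302 and 91362 bp away. Cbx8, a chromodomain subunit of the same complex, had its region at chr11:119048413-119048581, called in control 1 and CKO 1 at 23.2% and 33.5%.

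**Figure D4:**
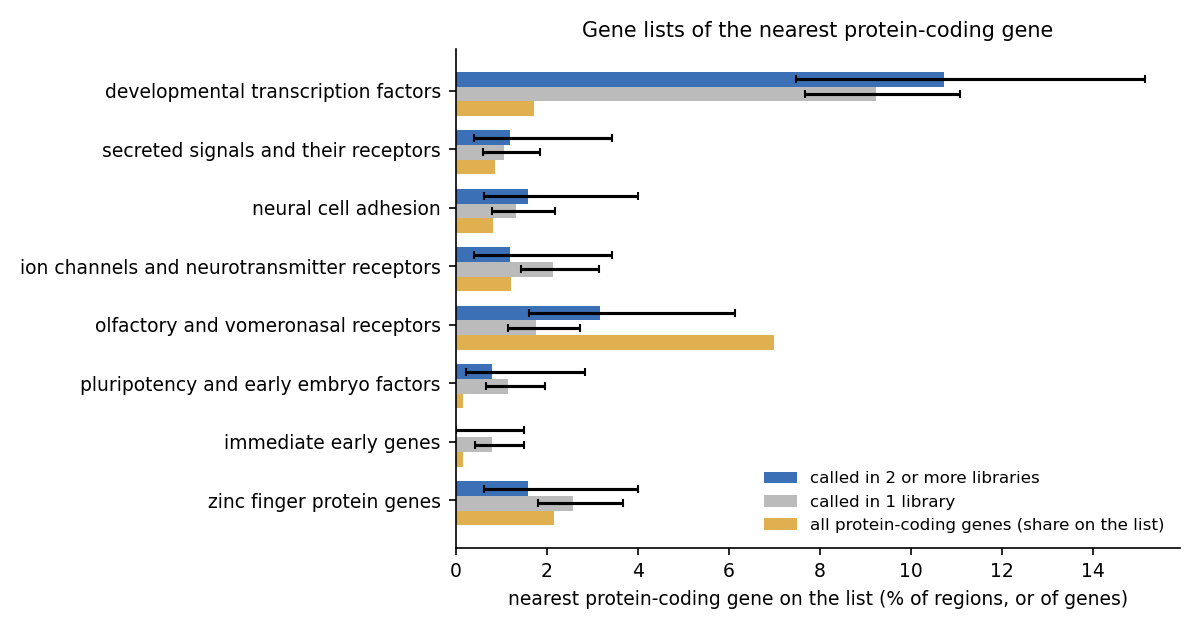
Share of regions whose nearest protein-coding gene is on a list (horizontal axis, percent), for each of the 8 lists (vertical axis), with 95% Wilson intervals for intergenic regions (blue) and single-library regions (grey). Yellow bars give the share of all protein-coding genes on the list, whatever the length of sequence nearest to each. Developmental transcription factors reach 10.7% and 9.24% of regions and 1.73% of genes, and blue and grey intervals overlap in every list.

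Among regions called in 1 condition only, the best placed of both control libraries lay 17826 bp from the pseudogene Gm7612 (14.9% and 19.7%), 53555 bp from Gm3749 (16.9% and 19.6%) and 6039 bp from Gm35405 (23.1% and 31.5%). Others were chr4:22498728-22498891, 10361 bp from Pou3f2, a neural POU factor (32.2% and 32.9%), and chr6:97278172-97278370, 8496 bp from Frmd4b (38.9% and 28.8%). The best placed of both CKO libraries was chr17:39843070-39843218, at 0.586% and 1.67%, 3135 bp from Rn18s-rs5, a pseudogene of 18S ribosomal RNA, and 340 bp from a METTL3 peak. Others were the regions near Hoxc10 and Sp8 given above. Further ones lay 11828 bp from Rps6ka1, a ribosomal S6 kinase (47.0% and 34.3%), and 2468 bp from Snord118, the U8 small nucleolar RNA (18.1% and 64.6%). Near Rps6ka1, intergenic regions 12412 and 23002 bp from the gene were called in control 2, CKO 1 and CKO 2, so calls of a control library lay close by. With the lists shortened to 1439 peaks, 12 of 110 regions were of both control libraries alone and 17 of both CKO libraries alone. With the full lists these counts were 33 and 21 of 252, so that their order turned. The shares over all METTL14 regions with shortened lists were not computed.

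A minority of the intergenic regions lay close to METTL3 peaks that they did not overlap, and these were mostly high in the lists. The median distance to the nearest METTL3 peak was 1.30 Mb (1019784 to 1828908 bp). Within 10 kb of one lay 24 regions (9.52%, 6.48% to 13.8%), against 2.93% (2.09% to 4.09%) of single-library regions. These 24 had a median mean position of 6.11% of the lists that called them, and the 228 others one of 50.9%. Of the 19 intergenic regions with a mean position in the first 10% of the lists, 13 lay within 10 kb of a METTL3 peak, and of the 37 in the first 20% it was 15. The distances of the closest were 16 bp (chr1:85084814-85084965, near A530032D15Rik), 78 bp (chr13:119615818-119616053), 130 bp (chr9:124256688-124256868), 135 bp (chr19:61267038-61267202) and 175 bp (chr15:75086314-75086467). Without the regions within 10 kb of METTL3, 228 were left, of which 11.8% were called in all 4 libraries and 11.8% lay nearest to a listed developmental transcription factor.

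**Figure D5:**
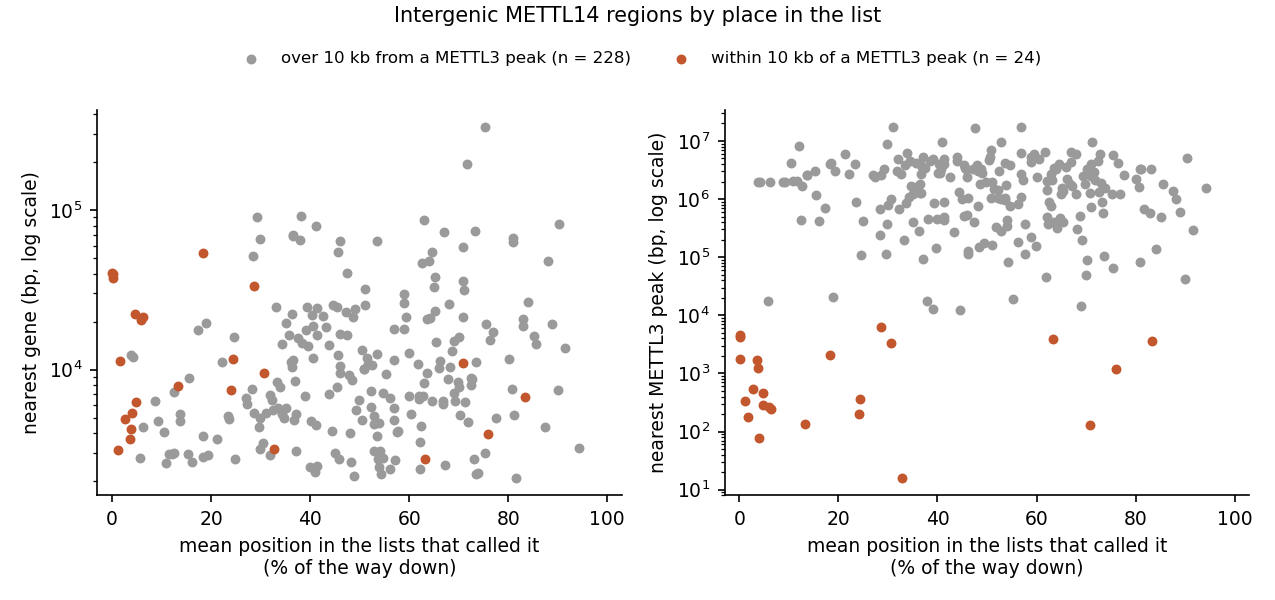
Each of the 252 intergenic regions by its mean position in the lists that called it (horizontal axis, percent of the way down), with the distance in bp on log scales to the nearest gene (left) and to the nearest METTL3 peak (right). The 24 regions within 10 kb of a METTL3 peak (orange) crowd at the left, with a median position of 6.11%, and the 228 others (grey) spread over the lists around a median of 50.9%.

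The 3 best placed were neighbours on chromosome 2, at chr2:98662267-98662415, chr2:98662605-98662754 and chr2:98665037-98665207. All 4 libraries called each of them, and the lowest place of any was 0.347% of the way down, in CKO 2. They lay 37391 to 40183 bp from the lncRNA gene Gm33780, more than 1 Mb from the protein-coding gene Lrrc4c, and 1754 to 4546 bp from a METTL3 peak. A second group of 5 lay at chr13:119614116-119616850, 3656 to 6231 bp beyond the end of Tmem267 and 78 to 1686 bp from METTL3, with mean positions of 2.72% to 4.83%. Of the 10 regions in the first 3.3 Mb of a chromosome, which lay on 5 chromosomes, 5 were within 10 kb of METTL3. Among them was chr18:3006256-3006430, called in all 4 libraries at 4.44%, 4.77%, 4.67% and 9.66%, 260 bp from a METTL3 peak. The 10 regions lay between bases 3005292 and 3247857 of their chromosomes, and single-library regions in this stretch were not counted. No region was left out for repeated sequence or for signal that arises with any antibody. Whether either accounts for the regions high in the lists was not tested.

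Of the 6 top regions far from METTL3, 5 formed one group on chromosome 6. They lay at chr6:51170824-51179058, over 8235 bp, 4377 to 12404 bp from the start of the lncRNA gene Gm32328 and more than 1.9 Mb from any METTL3 peak. All 4 libraries called 3 of them. The best placed, chr6:51178851-51179058, stood at 3.90% and 3.33% in control 1 and 2 and at 2.29% and 5.42% in CKO 1 and 2. The sixth, chr6:49218276-49218431, lay 2806 bp from the start of Igf2bp3, which encodes an m6A-binding protein, and 17930 bp from METTL3. It stood at 6.65%, 4.54%, 2.75% and 9.03% in control 1, control 2, CKO 1 and CKO 2.

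Most intergenic regions stood alone. Linking those within 100 kb left 172 by themselves, 25 pairs, 4 groups of 3, 2 groups of 4 and 2 groups of 5. Another intergenic region lay within 10 kb of 55 (21.8%) and within 100 kb of 80 (31.7%), near the 20.8% and 33.1% of single-library regions. Besides the groups named above, 4 regions lay over 60311 bp around Gm10354 and Gm17019 on chromosome 5. Chromosome 6 held the most (24). The share of a chromosome's regions of 2 or more libraries that were intergenic was 27.3% on chromosome 16 (15 regions) and 22.7% on chromosome 18 (15), and 1.59% on chromosome 14, with 1 region.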

How the data were processed

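The data were 8 deposited lists of CUT&RUN peaks in mm10 coordinates, called per library. Tools listed in the submitters' processing notes, without their roles, are HOMER, Bowtie2 2.4.1, Trimmomatic 0.38, SAMtools and CASAVA. For peak threshold, background library and depth, the value is not given in the sources used here. The lists the authors deposited give peak starts and ends and a score, which was 1 throughout. METTL14 peaks were 149 bp wide, apart from 2.

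Regions were computed with Python 3.11.15 (NumPy 2.4.6, SciPy 1.17.1, Matplotlib 3.10.9). Genes were the 49554 RefSeq genes of GRCm38.p6, the assembly behind mm10, on the chromosomes used. Strand was taken from RefSeq promoter windows where a gene had one. The rules were tested on simulated peaks. Named regions were the best placed in all 4, in both control only and in both CKO libraries only, the most isolated, those at the 2 kb limit, the largest groups, those closest to METTL3, and up to 8 per gene list. Some regions that this rule selects are not reported here. The regions and lists were chosen with earlier results of these data known. Libraries were compared by exact permutation, and shares carry 95% Wilson intervals. Alternatives covered overlap, gene distance, gene biotype, list length, METTL3 overlap, number of libraries, each library left out and the replicate block.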

Additional observations from a re-analysis of the deposited data

How the results depend on the processing

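The number of intergenic regions, 252, was 117 when regions had to lie over 10 kb from genes, 470 with protein-coding genes only, 116 in the top part of each list (every list ended at its middle), 110 with lists of equal length and 96 when 3 or more libraries had to call a region. It ranged from 139 to 219 when 1 library was left out, which lowers it by construction. The median distance to a gene was 13107 bp over 5 kb and 20605 bp over 10 kb from genes, both set by the limit itself, 11788.5 bp with protein-coding genes only and 6720.5 bp with lists of equal length. It ranged from 7766 to 10138.5 bp with 1 library left out. The share called in all 4 libraries was 25.0% with METTL3 overlap allowed and 20.0% with lists of equal length. Regions of both control libraries alone numbered 17 over 10 kb from genes, 58 with protein-coding genes only, 13 in the top part of the lists and 12 at equal length. Those of both CKO libraries alone numbered 11 over 5 kb, 6 over 10 kb from genes and 5 in the top part. The log2 difference in regions called turned to 0.060 at equal length and ranged from -0.63 to 0.17 with 1 library left out and the regions chosen anew, and the difference in list share ranged from -0.23 to 1.78 percentage points. Neither passed a threshold under any alternative, which 2 libraries against 2 do not allow. The cause of these changes was not tested beyond the limits named.

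With the replicate number as a block the differences remained -0.23 (exact permutation p = 1) and 1.05 percentage points (exact permutation p = 0.5, the smallest that the blocked test allows). The correlation between control and CKO cells of the differences in calls, replicate 1 minus replicate 2, was 0.012 over the 252 regions. It was 0.008 over all 7944 merged regions. Regions enter by their calls and the lists differ in length, so these values cannot show whether libraries of the same number belong together. METTL3 peaks widened by 10 kb and the comparison with regions without METTL3 overlap were added after seeing the data. So were the share without Tmem267 and that without Tmem267 and Gm38821. The same holds for the differences over the same 252 regions without CKO replicate 2 (0.29 on the log2 scale and 0.184 percentage points, with no test). By library set, leaving out a library gave no value.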
